A study of Mus musculus with 6 samples.

Results

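The Myc and Max network was examined in the hearts of mice that overexpress Pontin in cardiomyocytes, as the rows of the deposited gene count table whose gene name is *Myc*, *Mycn*, *Mycl*, *Max*, *Mxi1*, *Mxd1*, *Mxd4*, *Mnt*, *Mlx* or *Mlxip*. All 10 genes were found among the 56748 genes of the table. RNA-seq libraries were made from the heart tissue of 3 Pontin cTG mice and 3 WT littermates, one library per heart, to ask how Pontin overexpression alters the transcriptome of the stressed heart. The transgene of the Pontin cTG line is a flag-tagged cDNA of human Pontin behind the α-MHC promoter, which drives expression in cardiomyocytes. WT littermates lack the transgene. All 6 animals were C57Bl/6-background males aged 10 weeks at the start, and all of them, controls included, had received angiotensin II (Ang-II) by mini-osmotic pump over 14 days, at a daily dose of 1.5 mg/kg BW. There were no untreated hearts among the 6 libraries, so the effect of Ang-II itself was not measured.

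Proteins of this network are basic helix-loop-helix leucine zipper factors that bind DNA in pairs. MYC, MYCN and MYCL pair with MAX and activate genes of ribosome production, metabolism and the cell cycle, whereas MXD1, MXI1, MXD4 and MNT compete for the same partner and recruit SIN3 corepressors to the same sites. MLX is the partner of a parallel arm, in which MLXIP (MondoA) responds to glucose metabolites. Pontin and its relative Reptin are known to bind MYC as cofactors. In the heart, MYCN is needed for growth of the embryonic myocardium, and MYC is a known early response gene of hypertrophy.

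Dimers of the network bind the E-box, whose core is CACGTG. This motif, which reads the same on both strands, was searched in the RefSeq promoter windows of GRCm38.p6, which run from 250 bases before to 50 bases after a gene's start. A window was matched by symbol for 9 of the 10 genes, and not for *Myc*. The motif was present for 4 of these 9 genes, against 7.15% of 32851 promoters in all and 11.6% of the 10257 tested genes with a window. All 4 sites are shown. Groups did not overlap for *Max* and, by a small margin, for *Mnt*, while those of *Mxd4* and *Mlx* did overlap. Whether the motif is linked to a group difference was not tested. Capitals mark the E-box, and each run is given 5′ to 3′ along the strand of its gene.
Max: gagcccggtCACGTGttagggggc
Mxd4: ctgggccacCACGTGctgttgcta
Mnt: cacccaagcCACGTGtgcgcgcgc
Mlx: gggttggatCACGTGactgagcct
The *Max* site lies at chr12:76962237-76962260 on the minus strand, and its E-box starts at position -3 relative to the gene's start. The *Mxd4* site is at chr5:34187915-34187938 on the minus strand with the E-box at -219. The *Mnt* site is at chr11:74830792-74830815 on the plus strand with the E-box at -123, and the *Mlx* site at chr11:101087241-101087264 on the plus strand with the E-box at -40. A match to the motif is not evidence of binding. The windows of *Mycn*, *Mycl*, *Mxi1*, *Mxd1* and *Mlxip* did not hold these letters.

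The sequencing depth differed by genotype, with totals of 12436822 to 13194038 counts in the WT libraries and 14584102 to 16888124 in the Pontin cTG libraries. Values are normalised counts, for which each library was rescaled to a common effective size with TMM factors. They are listed in the order of replicates 1, 2 and 3, and log2 fold changes are those of Pontin cTG over WT with their standard error (SE). Pontin cTG replicate 2 stood apart, with a score of 50.9 on the first principal component (48.6% of the variance), where the other libraries lay between -23.1 and 16.2. The 6 cardiomyocyte markers (*Myh6*, *Tnnt2*, *Tnni3*, *Actc1*, *Ryr2* and *Pln*) summed to between 530053 and 670291 normalised counts in the 6 libraries, while the 4 lymphocyte markers summed to at most 24.0. The endogenous Pontin gene *Ruvbl1* had 216, 221 and 217 normalised counts in WT hearts and 249.9, 250.02 and 239.95 in Pontin cTG hearts, a log2 fold change of 0.18 (SE 0.12). Transgene reads are of human sequence, and whether some of them are counted for the mouse gene was not tested.

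*Max*, the shared partner, had the largest log2 fold change of the 9 network genes tested, although that of *Mycn* was larger when WT replicate 1, Pontin cTG replicate 1 or Pontin cTG replicate 3 was left out (0.39, 0.61 and 0.40, against 0.31, 0.36 and 0.31 for *Max*). It had 398, 461 and 456 normalised counts in WT hearts and 583, 500.04 and 618 in Pontin cTG hearts. All 3 Pontin cTG hearts therefore lay above all 3 WT hearts, although Pontin cTG replicate 2 was near the top of the WT range. The means were 438 ± 35.3 for WT and 567 ± 60.4 for Pontin cTG (SD, n = 3 mice each), a log2 fold change of 0.37 (SE 0.13), or 1.29-fold with a 95% interval from 1.05 to 1.59 that is not adjusted for the number of genes. The difference did not pass the threshold over all genes (edgeR quasi-likelihood test, unadjusted p = 0.0216, Benjamini-Hochberg adjusted p = 0.999). The two-sided exact permutation test gave p = 0.1, the smallest that 3 mice against 3 allow. All 3 Pontin cTG libraries were also deeper than all WT libraries. *Max* (ENSMUSG00000059436) spans chr12:76984043-77008975 on the minus strand in the table's coordinates, whose build the submitters' processing notes name as GRCm39, as for the other genes positioned here. The other gene annotated within it, *Gm47218*, had at most 9 counts in any library.

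Across all genes tested, 0 of 13888 (0%) passed an adjusted p of 0.05 in edgeR, and DESeq2 called 1 of 25633 (0.0039%), which was no member of the network. With edgeR, 285 genes (2.05%) had an unadjusted p under 0.05, 1.02% of all genes being higher and 1.03% lower in Pontin cTG hearts. *Max*, higher in Pontin cTG hearts, was the only one among the 9 network genes tested and ranked 84 by p. DESeq2 gave 217 genes at an unadjusted p under 0.05 (0.847% of 25633), *Max* included (unadjusted p = 0.0372, adjusted p = 0.9996). Groups were separate, without overlap, for 2 of the 9 genes, *Max* and *Mnt*, both higher in Pontin cTG hearts. Over all genes tested, 8.33% were separate, 4.7% with higher and 3.63% with lower values in Pontin cTG hearts. A log2 fold change above 0 was found for 7 of the 9 genes, against 50.2% of all genes, and the median of the 9 was 0.076, against 0.0013 over all genes. The log2 fold change of *Max* stayed between 0.31 and 0.48 in the 14 alternative fits, whereas its unadjusted p was 0.0972, 0.0508 and 0.0744 when WT replicate 1, Pontin cTG replicate 1 or Pontin cTG replicate 3 was left out.

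**Figure D1:**
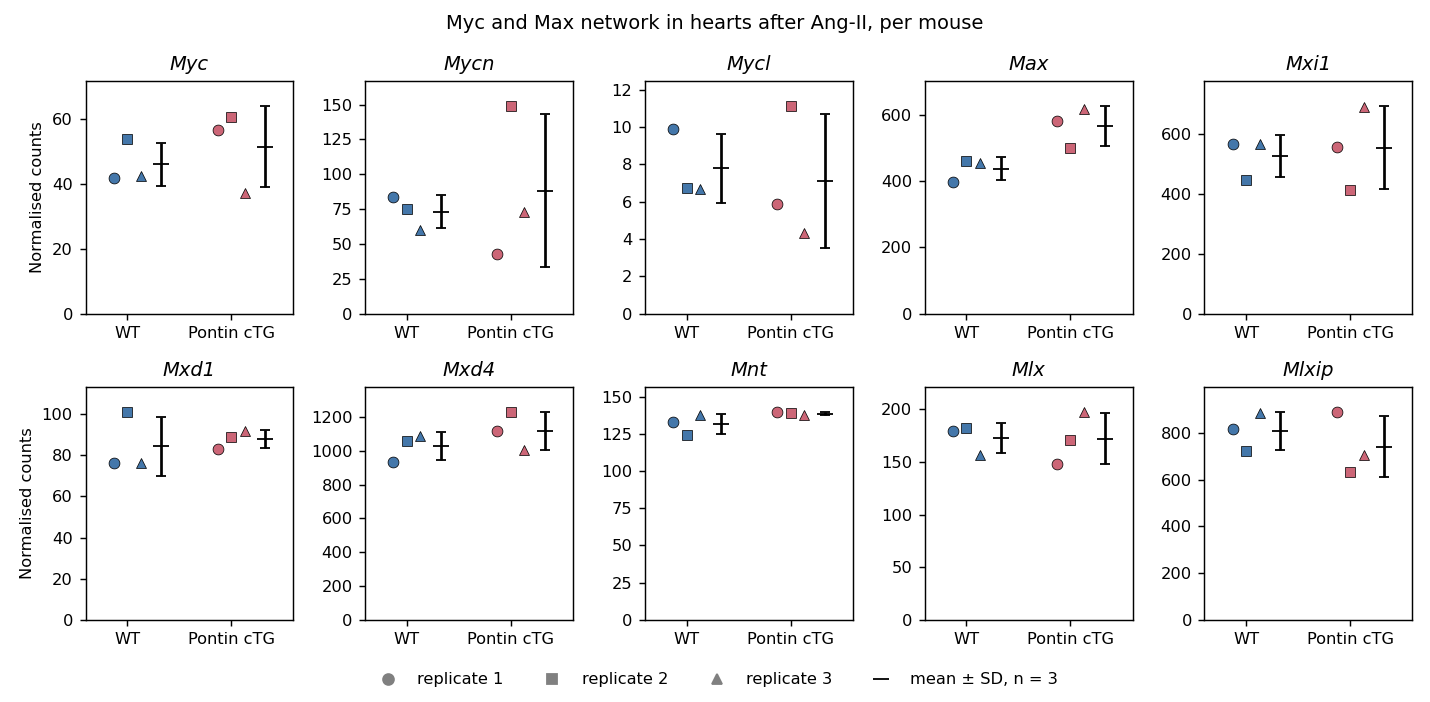
Normalised counts (vertical axes, each from 0) of the 10 genes in WT and Pontin cTG hearts, with a symbol per replicate and the mean ± SD of 3 mice beside the points. The *Max* points of the 3 Pontin cTG hearts lie above those of the 3 WT hearts, and the *Mycn* point of Pontin cTG replicate 2, at 149, is far above the rest.

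*Myc* (chr15:61857240-61862223, plus strand), the best known activator of the network, was expressed at a low level in both genotypes, with 38 to 71 counts per library. It had 41.8, 53.8 and 42.5 normalised counts in WT hearts and 56.6, 60.8 and 37.2 in Pontin cTG hearts. Pontin cTG replicates 1 and 2 were above all WT hearts, but replicate 3 was the lowest of the 6 libraries. The log2 fold change was 0.16 (SE 0.28), with a 95% interval from -0.47 to 0.79, so that a change in either direction of up to these sizes is compatible with the data (adjusted p = 0.999, edgeR). The log2 fold change was 0.35 when Pontin cTG replicate 3 was left out and 0.023 when replicate 2 was.

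*Mycn* (chr12:12986094-12991915, minus strand), which drives growth of the embryonic heart, varied more among Pontin cTG hearts than any other tested gene of the network. It had 83.7, 75.2 and 60.4 normalised counts in WT hearts and 43.0, 149 and 72.8 in Pontin cTG hearts. Both the lowest and the highest of the 6 values were therefore from Pontin cTG hearts, with a coefficient of variation of 62.0% against 16.2% in WT. The log2 fold change was 0.28 (SE 0.40, adjusted p = 0.999 in edgeR), and it turned to -0.33 without Pontin cTG replicate 2. The 5 fibroblast markers summed to 23591 in that library and to 15176 and 12408 in Pontin cTG replicates 1 and 3. The same markers summed to 23644 in WT replicate 2, where *Mycn* was at 75.2. The 4 endothelial markers summed to 14115 in Pontin cTG replicate 2 and to between 9864 and 11750 in the other libraries. Of the other marker sums, only that of lymphocytes, at 24.0, was highest in Pontin cTG replicate 2 as well. In heart tissue, a smaller number of cells of a type and less RNA per cell cannot be told apart, and the part of other cell types in these values was not tested.

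*Mycl* (chr4:122889445-122896278, plus strand) was near the limit of detection, with 5 to 13 counts per library, and did not pass the filter on low counts. Its counts summed to 21 in WT, or 0.547 CPM (exact Poisson 95% interval 0.338 to 0.836), and to 24 in Pontin cTG hearts, or 0.513 CPM (0.329 to 0.764). These intervals cover counting error only. Without the filter its log2 fold change was -0.14 (edgeR, unadjusted p = 0.832), and differences within these intervals were not detectable at this depth.

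The partners that compete with MYC for MAX had higher mean levels per gene length (TPM) than the *Myc* genes, with the exception of *Mxd1*. *Mxd4* (chr5:34331227-34345064, minus strand) had 937, 1060.1 and 1091 normalised counts in WT hearts and 1119, 1229.6 and 1006 in Pontin cTG hearts. Pontin cTG replicates 1 and 2 were above the WT range and replicate 3 was within it, with a log2 fold change of 0.12 (SE 0.13; 95% interval -0.19 to 0.42). *Mxi1* (chr19:53298949-53364241, plus strand) had 565, 445 and 566 in WT hearts and 557, 413 and 691 in Pontin cTG hearts. The lowest *Mxi1* value of each genotype came from replicate 2, the libraries that also score highest on the first principal component, and the log2 fold change of 0.076 (SE 0.20) turned to -0.12 without Pontin cTG replicate 3 and to -0.030 without WT replicate 2. *Mxd1* (chr6:86624024-86646143, minus strand), a gene of differentiating cells, had 76.0, 101 and 76.0 in WT hearts and 83.0, 89.0 and 91.8 in Pontin cTG hearts, a log2 fold change of 0.062 (SE 0.20) with groups that overlapped. Without WT replicate 1 it was -0.0039.

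*Mnt* (chr11:74721746-74736551, plus strand), which is expressed in most cell types and opposes MYC, had the lowest coefficient of variation of the network in both genotypes. It had 133, 125 and 137.5 normalised counts in WT hearts and 139.6, 138.7 and 137.7 in Pontin cTG hearts. The Pontin cTG hearts lay above the WT hearts, but only by the distance between 137.5 and 137.7. The coefficient of variation was 5.02% in WT and 0.679% in Pontin cTG hearts. With 111 to 162 counts per library, counting error alone is larger than either spread. These low values therefore do not show that *Mnt* is steady, and the gap between the groups is not resolved. The log2 fold change was 0.074 (SE 0.15; adjusted p = 0.999, edgeR; exact permutation p = 0.1). The groups overlapped when counts were scaled by library size alone, when the filter on low counts was dropped, when at least 10 counts were required in every library, and when either WT replicate 1 or Pontin cTG replicate 1 was left out.

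In the parallel arm, *Mlx* and *Mlxip* showed no direction shared by the 3 Pontin cTG hearts. *Mlx* (chr11:100978103-100983033, plus strand) had 179.5, 183 and 157 normalised counts in WT hearts and 148, 171 and 197.5 in Pontin cTG hearts. The groups overlapped, and the means were 173 ± 14.3 for WT and 172 ± 24.6 for Pontin cTG (SD of 3 mice). Its log2 fold change was -0.0037, with a 95% interval from -0.37 to 0.36. *Mlx* overlaps 385 bases of *Psmc3ip* on the opposite strand, a gene with 13 to 33 counts per library, and whether the counting used strand is not given in the sources used here. *Mlxip* (chr5:123532861-123595995, plus strand) had 818, 725 and 885 in WT hearts and 888, 634 and 705 in Pontin cTG hearts. Pontin cTG replicate 1 was just above the WT range and replicates 2 and 3 were below it, and the log2 fold change was -0.12 (SE 0.16; 95% interval -0.48 to 0.23; adjusted p = 0.999, edgeR).

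**Figure D2:**
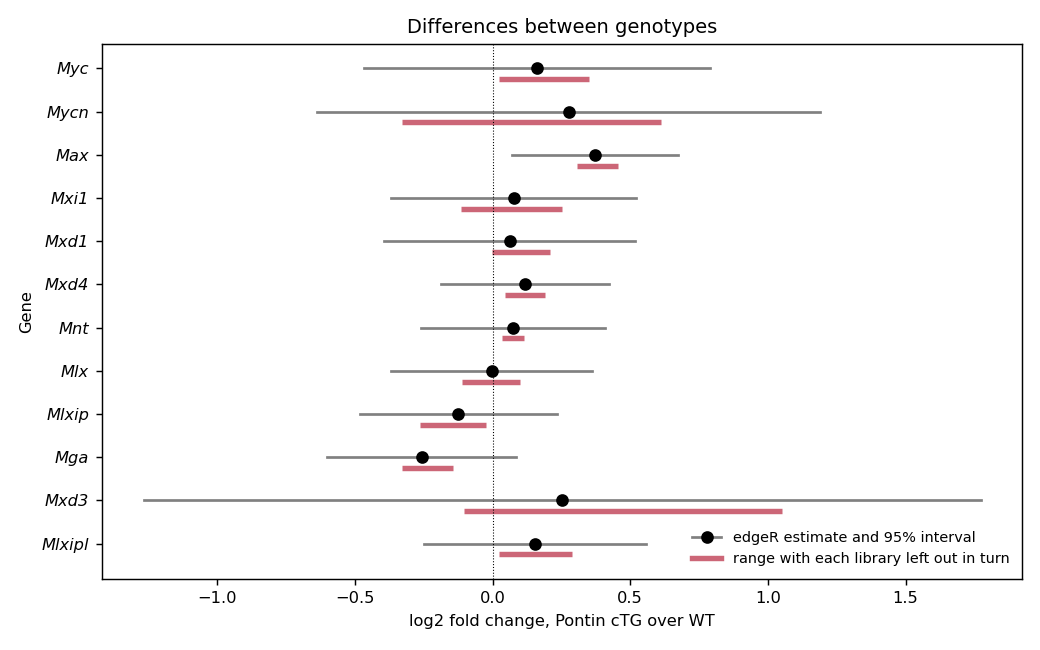
Log2 fold change of Pontin cTG over WT (horizontal axis) for the 9 tested genes of the network and for *Mga*, *Mxd3* and *Mlxipl*, with 95% intervals in grey and the range over 6 fits that each left out a library in red. *Max*, at 0.37, is the gene whose interval does not include 0 before adjustment, and the red range of *Mycn* runs from -0.33 to 0.61.

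To compare levels between genes, counts were divided by the gene length in the table and scaled to a common sum per library (TPM). *Max* and *Mxd4* were at the top in WT hearts, at 18.6 ± 2.01 and 18.5 ± 1.91 TPM (SD, n = 3 each), and their ranges overlapped. *Mlxip* (14.8), *Mlx* (13.2) and *Mxi1* (11.7) followed on the same scale, each overlapping with its neighbour in this order, but *Mlxip* was separate from *Mxd4*. *Mnt* was next among the network genes at 4.34 TPM, above *Mycn* at 3.38 TPM and *Myc* at 2.59 TPM. *Mxd1* had a mean of 1.82 TPM and *Mycl* 0.293 TPM in WT. The 10 genes came in the same order by mean TPM in Pontin cTG hearts, from *Max* at 24.1 to *Mycl* at 0.275. There the ranges of *Mnt*, *Mycn* and *Myc* overlapped from one to the next, which in WT held only for *Mycn* and *Myc*. How the length in the table was defined is not given in the sources used here.

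**Figure D3:**
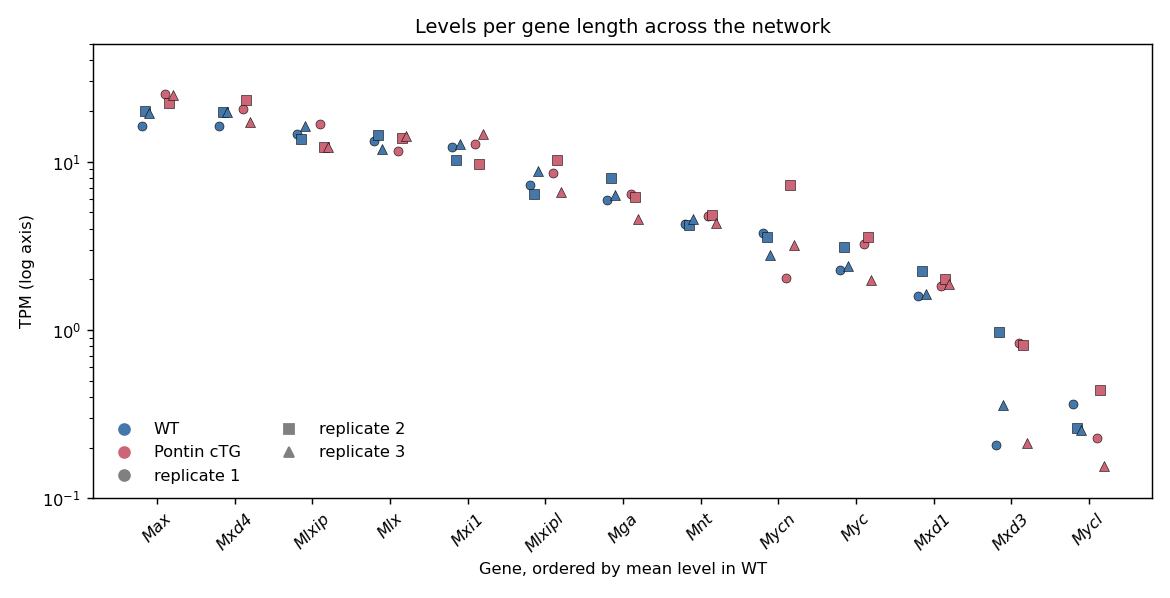
Level per gene length (TPM, log axis) of the 10 genes and of *Mga*, *Mxd3* and *Mlxipl* in each library, ordered by the WT mean, with colour for genotype and symbol for replicate. *Max* and *Mxd4* lie at the top and *Mycl* at the bottom, below 1 TPM in all 6 libraries.

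The make-up of the network RNA was described by the share of each component in the summed TPM of the 10 genes. *Mxi1*, *Mxd1*, *Mxd4* and *Mnt* together made up 39.7% to 42.1% in the WT libraries and 40.1% to 40.3% in the Pontin cTG libraries, a range that lay within that of WT. The *Myc* genes together took 5.95% to 7.61% in WT, 5.57% and 5.63% in Pontin cTG replicates 1 and 3, and 11.4% in Pontin cTG replicate 2, the library with high *Mycn*. The share of *Max* lay between 19.2% and 22.0% in WT and between 22.4% and 26.2% in Pontin cTG hearts. That of *Mlx* and *Mlxip* lay between 30.7% and 32.7% in WT and between 26.1% and 28.6% in Pontin cTG hearts. Shares add up to a fixed total, so a higher share of *Max* lowers the others. The ratio of the 4 competing partners to *Max* was 2.11, 1.81 and 1.99 in WT hearts and 1.58, 1.78 and 1.53 in Pontin cTG hearts. The groups did not overlap for this ratio, by a small margin between WT replicate 2 and Pontin cTG replicate 2, and it holds the same *Max* values as above. The ratio of the competing partners to the *Myc* genes overlapped, at 5.89 ± 1.03 for WT and 5.96 ± 2.11 for Pontin cTG (SD of 3 mice).

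**Figure D4:**
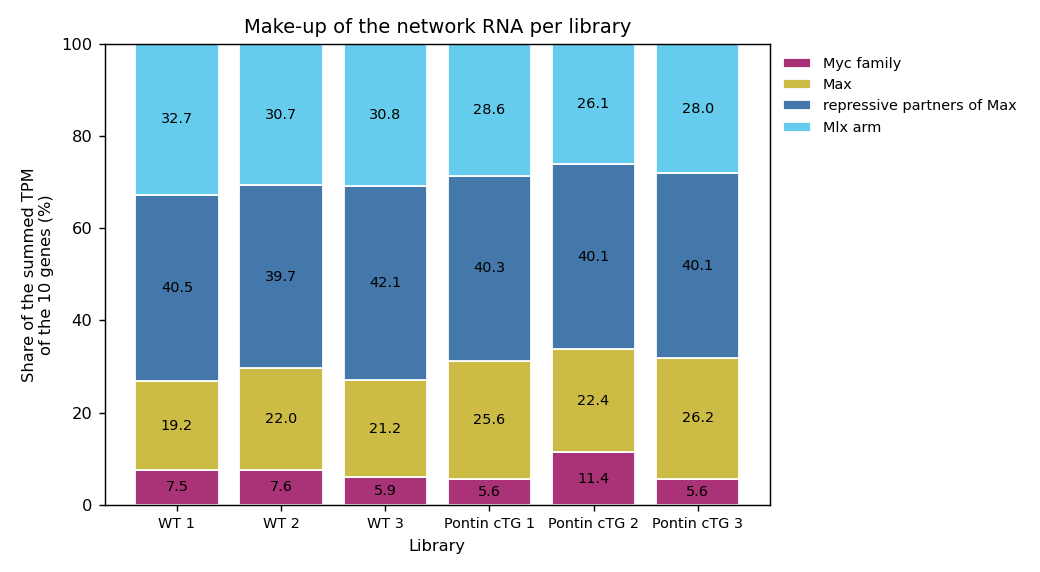
Share of each component in the summed TPM of the 10 genes (percent, stacked to the whole) in each library. The *Max* share lies between 22.4% and 26.2% in the 3 Pontin cTG libraries and between 19.2% and 22.0% in WT, and the *Myc* genes reach 11.4% in Pontin cTG replicate 2.

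The other genes whose products pair with MAX or MLX did not pass the threshold either. *Mga*, a large MAX partner that represses germ-line genes, had 614, 782 and 639 normalised counts in WT hearts and 629, 589 and 485 in Pontin cTG hearts, a log2 fold change of -0.26 (SE 0.15) with groups that overlapped. *Mlxipl* (ChREBP), which drives lipid synthesis genes in response to glucose, had a log2 fold change of 0.15 (SE 0.18). *Mxd3*, a gene of dividing cells, had 3 to 14 counts per library, with 21 counts summed in WT and 31 in Pontin cTG hearts.

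Cofactors and regulators of MYC were described by their counts beside those of all genes. Of the 8 cofactors listed, among them *Trrap*, *Kat5* and *Ep400* of the TIP60 complex, all were tested, 5 had a log2 fold change above 0 and 3 below (median 0.050), and 0 had an unadjusted p under 0.05. Over all genes tested, 50.2% were above 0, 2.05% had an unadjusted p under 0.05 and 8.33% were separate between groups. Of the cofactors, 1 was separate, *Ruvbl1*, whose values are given above with the limit set by transgene reads. *Ruvbl2*, the gene of Reptin, had a log2 fold change of 0.036 (SE 0.13), which was -0.015 without WT replicate 2 and -0.0085 when Pontin cTG replicate 2 was left out. Of the 5 corepressor genes recruited by the MXD proteins, 1 was above 0 (*Sin3b*, log2 fold change 0.24, SE 0.14) and 4 were below (median -0.070). The *Sin3b* groups did not overlap, with at most 585 normalised counts in WT and at least 606 in Pontin cTG hearts. Of the 7 genes that control MYC stability, 2 were above and 5 below 0 (median -0.12). Among them, *Huwe1*, a ubiquitin ligase of MYC and other proteins, had 3425 to 3472 normalised counts in WT and 3415, 2523 and 2337 in Pontin cTG hearts, a log2 fold change of -0.32 (SE 0.17; adjusted p = 0.999, edgeR). Its groups did not overlap, although Pontin cTG replicate 1 was close to WT.

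Genes that MYC is known to induce were read from a list of 64 genes written from general knowledge, of which 63 were tested (all but *Dusp2*). Many of them are genes of ribosome production, nucleotide and polyamine synthesis, chaperones and the cell cycle, and others, such as *Hk2* and *Map3k6*, are not. In Pontin cTG hearts 28 of the 63 had a log2 fold change above 0 and 35 below, and 0 passed an adjusted p of 0.05 in edgeR. Their median log2 fold change was -0.011, against 0.0013 for all genes tested, and the values were 0.017 and 0.031 when library size alone was used for scaling, a change that moves all genes alike. The middle of the list was narrower than that of all genes, with quartiles at -0.082 and 0.090 against -0.14 and 0.15. No overlap between groups was seen for 6 of the 63 genes (9.52%), 4 higher and 2 lower in Pontin cTG hearts, against 8.33% of all genes. The E-box was present in the promoter window of 15 of the 56 list genes with an entry (26.8%), against 11.6% of the 10257 tested genes with a window. The list was chosen as genes that MYC is known to induce, so this share is no result about these hearts.

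Of this list, 2 of 63 genes had an unadjusted p under 0.05, 1 in each direction, against 1.02% higher and 1.03% lower among all genes. *Ccnd2*, which encodes cyclin D2, had 2462, 2007 and 1991 normalised counts in WT hearts and 1546, 1786 and 1589.6 in Pontin cTG hearts. All 3 Pontin cTG hearts lay below the WT hearts, with a log2 fold change of -0.39 (SE 0.14; unadjusted p = 0.0242, adjusted p = 0.999, edgeR). *Rrp9*, a gene of ribosomal RNA processing, had 194, 199.7 and 205 in WT hearts and 234, 265 and 243 in Pontin cTG hearts. All 3 Pontin cTG hearts lay above the WT hearts, with a log2 fold change of 0.31 (SE 0.13; unadjusted p = 0.0388, adjusted p = 0.999, edgeR). The next smallest p above 0 belonged to *Cad* (0.32, pyrimidine synthesis) and *Hspe1* (0.23, a mitochondrial chaperonin), and below 0 to *Utp20* (-0.29, ribosomal RNA processing) and *Pus7* (-0.25, pseudouridine synthesis), all as log2 fold changes.

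**Figure D5:**
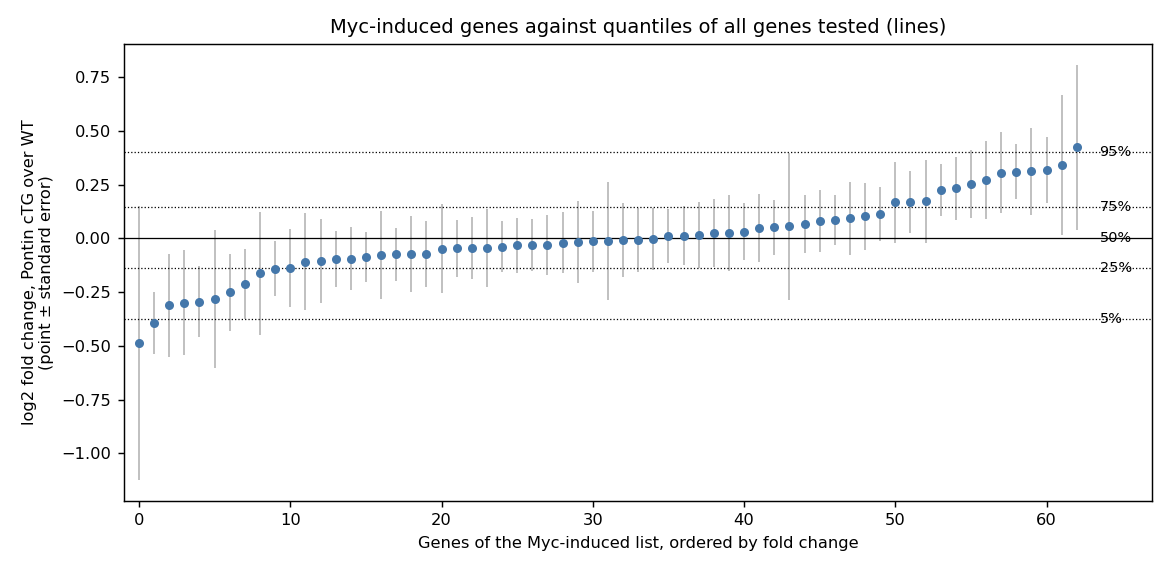
Log2 fold change of Pontin cTG over WT with its standard error (vertical axis) for the 63 tested genes of the Myc-induced list, in order of size. Horizontal lines mark the 5%, 25%, 50%, 75% and 95% quantiles of all genes tested, and the list's median of -0.011 lies near the middle line at 0.0013.

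Among genes that MYC is known to repress, *Cdkn1a*, the cell cycle inhibitor p21, spread widely among Pontin cTG hearts. It had 356, 329 and 495 normalised counts in WT hearts and 1315, 533 and 387 in Pontin cTG hearts. Pontin cTG replicate 1 was above every other library, and replicate 3 was inside the WT range, so the groups overlapped. The log2 fold change was 0.92 (SE 0.42; adjusted p = 0.999, edgeR) and 0.24 without Pontin cTG replicate 1. *Gadd45a* and *Ndrg1* had log2 fold changes of -0.055 and 0.058, and *Cdkn2b* did not pass the filter, with 16 counts summed in WT and 32 in Pontin cTG hearts. *Txnip*, a strongly MondoA-dependent gene, had 4646, 8049 and 5292 normalised counts in WT hearts and 3029, 6491 and 3968 in Pontin cTG hearts, a log2 fold change of -0.42 (SE 0.30) with groups that overlapped. *Arrdc4*, its relative with the same regulators, had a log2 fold change of 0.13 (SE 0.23).

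The 5 protein-coding genes whose pattern over the 6 libraries was most like that of *Myc* were *Kdelr3*, *Bora*, *Acsl5*, *Edem1* and *Sec61b*. Likeness was the root mean square difference of centred log2 CPM, which lay between 0.035 and 0.071 for these genes. The median over the 12269 genes compared was 0.326, and the spread of *Myc* about its own mean was 0.249 on the same scale. The 5 genes were picked as the smallest of these differences, so their small values follow from the choice. With 38 to 71 counts of *Myc* per library, counting error is part of its pattern, and the size of that part was not tested.

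Beside the *Max* values, all 5 markers of macrophages and other leukocytes had a log2 fold change below 0, with a median of -0.39, and none had an unadjusted p under 0.05 in edgeR. Groups were separate for 1 of these 5, *Csf1r*, against 8.33% of all genes. Their sum was 3332, 5925 and 3520 normalised counts in WT and 3452, 4067 and 2941 in Pontin cTG hearts. The sums overlapped, and WT replicate 2 alone was above all Pontin cTG hearts. The summed cardiomyocyte, endothelial, fibroblast, smooth muscle and pericyte, and erythroid markers overlapped between the genotypes as well. Of the 6 cardiomyocyte markers, 1 was separate with higher and 1 with lower values in Pontin cTG hearts (33.3%, against 8.33% of all genes). None of the tested endothelial, fibroblast, smooth muscle and pericyte, or erythroid markers was separate. None of the markers of these lists was at 0 in all libraries. The part of cell composition and of depth in the *Max* difference was not tested.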

How the data were processed

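The authors deposited raw counts per Ensembl gene for 6 libraries, and 0 sample columns were left unmatched. The paper's methods name Trimmomatic, STAR, mm10 and Gencode M25, whereas the submitters' processing notes name fastp, HISAT2, featureCounts, DESeq2 and GRCm39. Among 52073 genes found both in the table and in GENCODE M21 (GRCm38), 1472 have the same start and end, and 0 of the 10 members do. The notes give no tool versions. RNA came from heart tissue, one mouse per library.

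After a filterByExpr filter (minimum count 10) and TMM scaling, genotype was tested by the edgeR 4.0.16 quasi-likelihood method in R 4.3.3 with no other covariate, and p-values of the 13888 genes were adjusted after Benjamini and Hochberg. The standard error is the log2 fold change divided by the square root of F, and 95% intervals use the test's degrees of freedom. The biological coefficient of variation common to all genes was 0.197, and the tests were checked on simulated data first. TPM values were computed from the deposited counts and the deposited gene length in bases.

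The members and lists were chosen with earlier results of these data known. The genes named are the members, *Mga*, *Mxd3*, *Mlxipl*, genes of the cofactor, corepressor, turnover, repressed and Mlx target lists, for each direction the 3 Myc-induced genes of smallest p and the 5 genes most like *Myc*. Of the cofactor, corepressor and turnover lists, those described beyond their counts (*Sin3b*, *Huwe1*), and the marker *Csf1r*, were picked after their values were seen. The symbol *Phb1* of the list is *Phb* in the table. Alternatives were DESeq2 1.42.0, its size factors in edgeR, library size alone, other filters, no mitochondrial genes, a block for replicate number, limma-voom 3.58.1 with sample quality weights, and each library left out in turn.

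Counts of all library pairs differed beyond sampling noise, the smallest chi-square per gene being 5.24, and all 6 were kept.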

Additional observations from a re-analysis of the deposited data

How the results depend on the processing

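The number of genes called at an adjusted p under 0.05, 0 in edgeR, was 1 in DESeq2 (*Scd4*), 3 without a filter on low counts and 3 in limma-voom with sample quality weights, and ran from 0 to 3 when each library was left out (3 without Pontin cTG replicate 2, with 686 genes at an unadjusted p under 0.05). Members called stayed at 0 in all 14 alternatives. Tested members whose groups did not overlap, 2 as reported, numbered 1 (*Max*) with library size alone, without the filter and with at least 10 counts in every library, and ran from 1 to 4 when each library was left out, the largest number being without Pontin cTG replicate 3. The median of the Myc-induced list was 0.036 in limma-voom and ran from -0.026 to 0.037 with each library left out.

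Of 349 alternative log2 fold changes of 25 named genes, 332 kept their direction and their side of the threshold and 17 reversed. With a library left out, *Mycn* ran from -0.33 to 0.61, *Mxi1* from -0.12 to 0.25, *Mxd1* from -0.0039 to 0.21, *Mlx* from -0.11 to 0.10, *Mxd3* from -0.10 to 1.05, *Ruvbl2* from -0.015 to 0.13 and *Arrdc4* from -0.19 to 0.30. In limma-voom, *Mycn* was -0.42 and *Arrdc4* -0.14. *Mlx* was 0.024 with library size alone, a scaling that moved the median of all genes from 0.0013 to 0.031, and 0.0042 with at least 10 counts in every library. The causes of the other reversals were not tested.

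The labels do not say whether mice with the same replicate number are pairs. The deviations of same-numbered libraries had correlations of 0.077, 0.43 and 0.19, and 2 of 6 libraries correlated best with their own number. Such correlations cannot show how the mice were bred or handled. With the replicate block, 0 genes were called, 499 had an unadjusted p under 0.05, and *Max* had a log2 fold change of 0.37 (adjusted p = 0.944, edgeR). With 38 to 71 counts of *Myc* per library, changes inside its interval could not be seen.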

Other observations

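The table's own annotation places the 10 members in the bHLH family of transcription factors, and 45 other bHLH genes were tested. Of these, 25 had a log2 fold change above 0 and 20 below, while 50.2% of all genes tested were above 0. Their median was 0.10, against 0.0013 over all genes. WT and Pontin cTG values were separate for 2 genes (4.44%), a smaller share than the 8.33% seen over all genes. These were *Hes6*, a regulator of differentiation, with a log2 fold change of 0.42 (SE 0.18; unadjusted p = 0.0404, adjusted p = 0.999, edgeR), and *Usf3*, with -0.33 (SE 0.17). *Hes6* had 123, 121 and 148 normalised counts in WT hearts and 150.4, 205 and 169 in Pontin cTG hearts. *Usf3* had 589 to 599 in WT and 583, 375 and 459 in Pontin cTG hearts. Both genes were chosen after their values were seen.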
